A study of Mus musculus with 24 samples.

Results

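The retina of hyperoxic C57Bl/6 mouse pups was compared between postnatal days 10 and 12. The comparison used 6 of the 24 arrays of a time series: the 3 labelled day 12, hyperoxia and the 3 labelled day 10, hyperoxia. They were chosen by their labels alone. The day 10 pups had spent 72 hours in hyperoxia and the day 12 pups 120 hours, so age and length of exposure rise together and cannot be told apart within these 6 arrays. The 6 arrays of room air pups of days 10 and 12 show the same interval of age without hyperoxia and were used beside them. Total RNA of the whole retina was hybridised, 1 array per sample and 3 arrays per group. The sources used here give no oxygen level, time of day or number of animals behind an array. Nothing in the labels says that replicates were separate animals, so p-values measure only how these samples vary, and that variation may be technical.

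Between days 10 and 12 the mouse retina is still maturing. Rods and cones are building their outer segments, the stacks of membrane that hold the visual pigment, and the Müller glia, which span the tissue and clear glutamate, potassium and water, take on their adult channels and enzymes. The last dividing progenitors leave the cell cycle. The vessels of the retina also form after birth, under the control of growth factors such as VEGF that tissue short of oxygen releases. Excess oxygen is known to stop this growth and to remove young capillaries in mouse pups. Hypoxia-inducible factors (HIF) are transcription factors that are degraded while oxygen is plentiful. Their targets include genes of glycolysis, mitochondrial turnover and vessel growth.

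All values are log2 intensities of a probe set, a group of short probes for 1 transcript. A difference of 1 is a doubling. In total 15838 probe sets were measurable, and they were tested in 1 limma fit over all 24 arrays with Benjamini-Hochberg adjustment, with a call at an adjusted p under 0.05. Errors of differences are standard errors from that fit. RNA of whole retinas was measured, so fewer cells of a type and less RNA per cell cannot be told apart.

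Retinal identity was clear on all 6 arrays: the rod arrestin Sag read between 15.05 and 15.41, and the oligodendrocyte gene Mog stood at the lower limit of measurement on 6 of 6. RNA of the lens varied between arrays of one group. The mean level of 16 measured lens genes was 11.42, 13.28 and 10.62 on the day 10 hyperoxia arrays and 8.16, 13.68 and 13.81 on the day 12 arrays. Replicate 1 of day 12 thus stood apart as the array with little lens RNA, with Cryaa at 7.37, and 0 of the 16 lens genes were called. Pigment epithelium RNA was highest on replicate 3 of day 12, where its 18 genes lay 1.13 above their mean over the 24 arrays, against -0.03 to 0.24 on the other 5. The part of these admixtures in the results was not tested beyond the counts given next.

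Over these 2 days 66 probe sets changed in hyperoxia, 0.417% of those tested: 35 were higher at day 12 (0.221%) and 31 lower (0.196%). They stand for 55 named genes, 33 that rose and 22 that fell, and 7 probe sets without a single gene symbol. The sizes ran from 0.41 to 2.56 with a median of 0.83, and 15 exceeded a doubling. On all 66 the 3 arrays of one day lay wholly above the 3 of the other, which was also the case for 7.48% of all tested probe sets in the upward and 8.11% in the downward direction. This separation follows largely from the choice, which used the same arrays, and is no separate support. The count of 66 rests on the spread shared by all 24 arrays: with only the 6 arrays compared, 0 were called, although 1354 had an unadjusted p under 0.05 (1609, or 10.2%, in the fit of all arrays). It also depends on single arrays. Without replicate 1, 2 or 3 of day 10 the calls numbered 20, 11 or 7, of which 17, 11 and 7 were among the 66. Without replicate 1, 2 or 3 of day 12 they numbered 42, 12 or 29, of which 30, 10 and 21 were among the 66. With the lens and pigment levels as covariates 29 were called, of which 27 were among the 66.

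The 15 largest rises were Guca1b, Aqp1, Pdzph1, Dio2, Aqp4, Gpsm2, Lyve1, Scara3, Glul, Rasgrf1, Cdr2, Spc25, Flt1, Il33 and Esrrb. The 15 largest falls were Mycl, Sox4, Hes5, Fabp7, Sema4b, Gnb1l, St8sia4, Notch1, Ppp1r14b, Rhno1, Cdk4, Dbi, Panx1, Mcm7 and Eny2. Each of these 30 kept its direction in every alternative processing in which it was measured, but not its call: Aqp1 was called in 16 of 17 alternatives, Cdr2 in 5 of 17, Eny2 in 5 of 16, Mcm7 in 3 of 15 and Gnb1l in 2 of 16. With a floor at the 40th percentile the difference of Sema4b shrank to -0.09. Not all probe sets of these genes responded equally. For 29 of the 55 genes more than 1 probe set was tested, and in 28 of them all pointed the same way, but only for Cdk4 were all of them called.

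**Figure D1:**
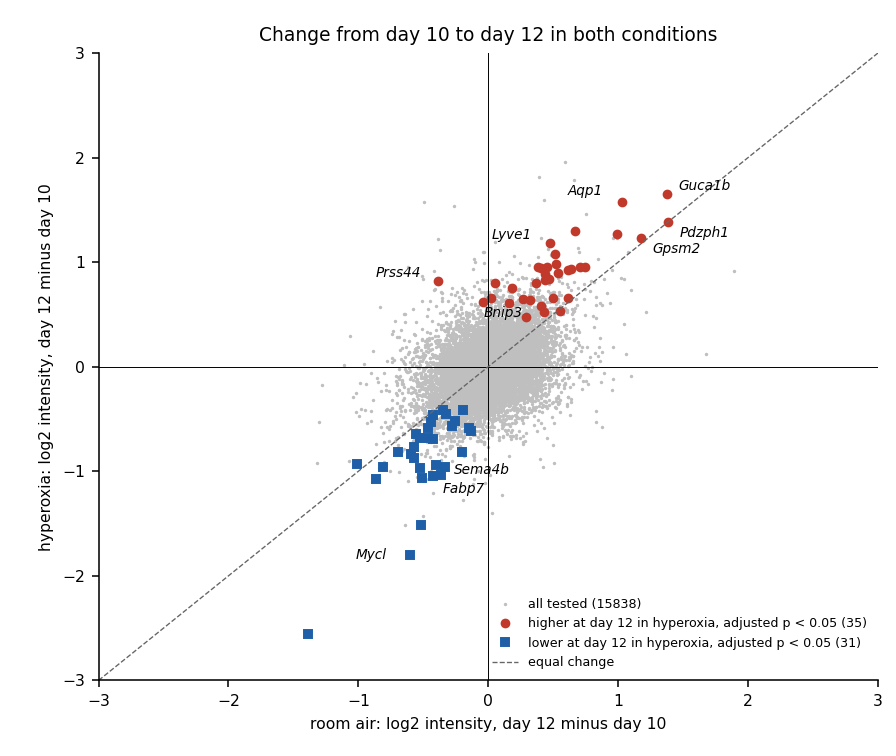
Difference in log2 intensity between day 12 and day 10 in room air (horizontal axis) and in hyperoxia (vertical axis) for 15838 tested probe sets, 1 grey point each; red circles are the 35 that were higher and blue squares the 31 that were lower at day 12 in hyperoxia, and the dashed line marks equal change. The coloured points were chosen on the vertical axis; 64 of the 66 lie on the same side of 0 in room air, and Prss44 is 1 of the 2 that do not.

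Guca1b, which encodes a protein that activates the photoreceptor's guanylate cyclase when calcium falls after light, had the largest rise. It read 12.43, 12.04 and 12.17 on the day 10 arrays and 13.62, 14.13 and 13.84 on the day 12 arrays. The groups were more than a doubling apart at their nearest values. The difference was 1.65 ± 0.31, a 3.14-fold rise (adjusted p = 0.025). A second probe set of Guca1b differed by only 0.36. Its partner Guca1a, which has the same role, went from 12.00, 12.03 and 12.16 to 12.48, 12.66 and 12.64 and rose by 0.53 ± 0.11 (adjusted p = 0.048). In room air the differences of the same probe sets were 1.37 ± 0.31 for Guca1b and 0.55 ± 0.11 for Guca1a, neither of them called (adjusted p = 0.19 and 0.11).

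These 2 were the only called members among 20 measured genes of calcium feedback and the outer segment, of which 15 differed upward, with a median of 0.10 in hyperoxia and 0.12 in room air. The median of all tested probe sets was -0.01, and 46.9% were above 0. Called higher were 0.221% and called lower 0.196%, the shares to set beside the counts of each list below. Of 14 rod phototransduction genes, the chain from rhodopsin to the cation channel, 0 were called and 12 differed upward, with a median of 0.19 against 0.17 in room air. The lowest p-values there belonged to Gnb5 (0.41 ± 0.12), Cnga1 (0.42 ± 0.15), Slc24a1 (0.71 ± 0.27) and Pde6a (0.65 ± 0.25). Of 9 cone genes 0 were called and 6 differed upward, with a median of 0.27 against 0.34 in room air. Members went both ways: Gnat2, the cone transducin, differed by 0.36 ± 0.10, while Gnb3, a G protein subunit of cones, and Cngb3, a subunit of their cation channel, differed by -0.46 ± 0.16 and -0.37 ± 0.12, each with separate arrays. Opn1mw, the green cone opsin, read 11.23, 10.85 and 10.78 at day 10 and 12.05, 12.18 and 12.34 at day 12. Its groups did not overlap, and its difference of 1.23 ± 0.28 missed the threshold (adjusted p = 0.054); in room air it was 0.96 ± 0.28.

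Esrrb, an orphan nuclear receptor of rods, was the only called gene of 10 measured transcription factors of photoreceptors. Its arrays read 11.66, 11.58 and 11.51 at day 10 and 12.52, 12.49 and 12.51 at day 12, and the rise was 0.92 ± 0.16 (adjusted p = 0.013). The spread within each day was small beside the step between them. Prdm1, which favours photoreceptor over bipolar fate, and Otx2, which acts early in both lineages, differed downward by 0.61 ± 0.14 and 0.59 ± 0.18 without a call. Among 17 bipolar cell genes Gng13, a G protein gamma subunit of ON bipolar cells, rose by 0.89 ± 0.16 (adjusted p = 0.024). The list as a whole had a median of 0.10 in hyperoxia and 0.16 in room air.

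Of 24 measured Müller glia genes 2 rose, Aqp4 and Spc25, and 16 differed upward, with a median of 0.10 in hyperoxia and 0.12 in room air. Aqp4, the water channel of Müller glia, read 9.87, 9.32 and 9.45 at day 10 and 10.72, 10.89 and 10.83 at day 12. It rose by 1.27 ± 0.20 (2.41-fold, adjusted p = 0.0083), and its second probe set differed by 1.13 ± 0.29. In room air the first of these differed by 0.99 ± 0.20, from levels of 9.93, 9.97 and 9.97. Spc25, named for its place in the kinetochore that links chromosomes to the spindle, rose by 0.95 ± 0.19 (adjusted p = 0.030), while 0 of 21 mitosis genes were called, with a median of -0.08.

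Glul, the glutamine synthetase with which Müller glia turn glutamate into glutamine, was called by 1 of its probe sets. That probe set read 12.00, 11.85 and 11.56 at day 10 and 12.79, 12.79 and 12.76 at day 12. The day 12 arrays lay within a few hundredths of each other and above all of day 10. The rise was 0.98 ± 0.21 (adjusted p = 0.043), and the brightest probe set, by which the list was counted, differed by 0.67 ± 0.16 (adjusted p = 0.085). In room air these were 0.52 ± 0.21 and 0.40. Clu, a secreted chaperone, differed by 0.80 ± 0.19 without a call (adjusted p = 0.076).

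Aqp1, another water channel, rose from 9.45, 9.23 and 8.75 to 10.58, 11.01 and 10.55, a difference of 1.57 ± 0.22 (2.97-fold, adjusted p = 0.0044). In room air Aqp1 differed by 1.03 ± 0.22 (adjusted p = 0.11), starting from higher levels of 10.27, 9.81 and 9.70 and ending at 10.76, 11.08 and 11.02. Dio2, the deiodinase that makes active thyroid hormone, rose by 1.29 ± 0.25 (adjusted p = 0.028) against 0.67 ± 0.25 in room air. The probe sets of Dio2 differed from each other, at 1.29, 0.28 and 1.46. Pdzph1 and Gpsm2, an organiser of spindle orientation and G protein signalling, were called in both conditions: Pdzph1 rose by 1.39 ± 0.19 in hyperoxia and 1.38 ± 0.19 in room air, and Gpsm2 by 1.23 ± 0.20 and 1.17 ± 0.20.

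The other large rises that no list held were smaller. Scara3, a scavenger receptor, rose by 1.08 ± 0.19, Rasgrf1, which activates Ras, by 0.95 ± 0.18, and Il33, a cytokine of the interleukin-1 family, by 0.93 ± 0.19. In room air the same 3 differed by 0.51, 0.71 and 0.63. Glrx, a reductase of protein disulfides, was chosen after its values were seen, for 1 of 2 called probe sets with opposite signs in both conditions. That probe set rose by 0.62 ± 0.14 in hyperoxia and differed by -0.04 ± 0.14 in room air. Another probe set of Glrx differed by 0.09 in hyperoxia and 0.33 in room air, upward in both.

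**Figure D2:**
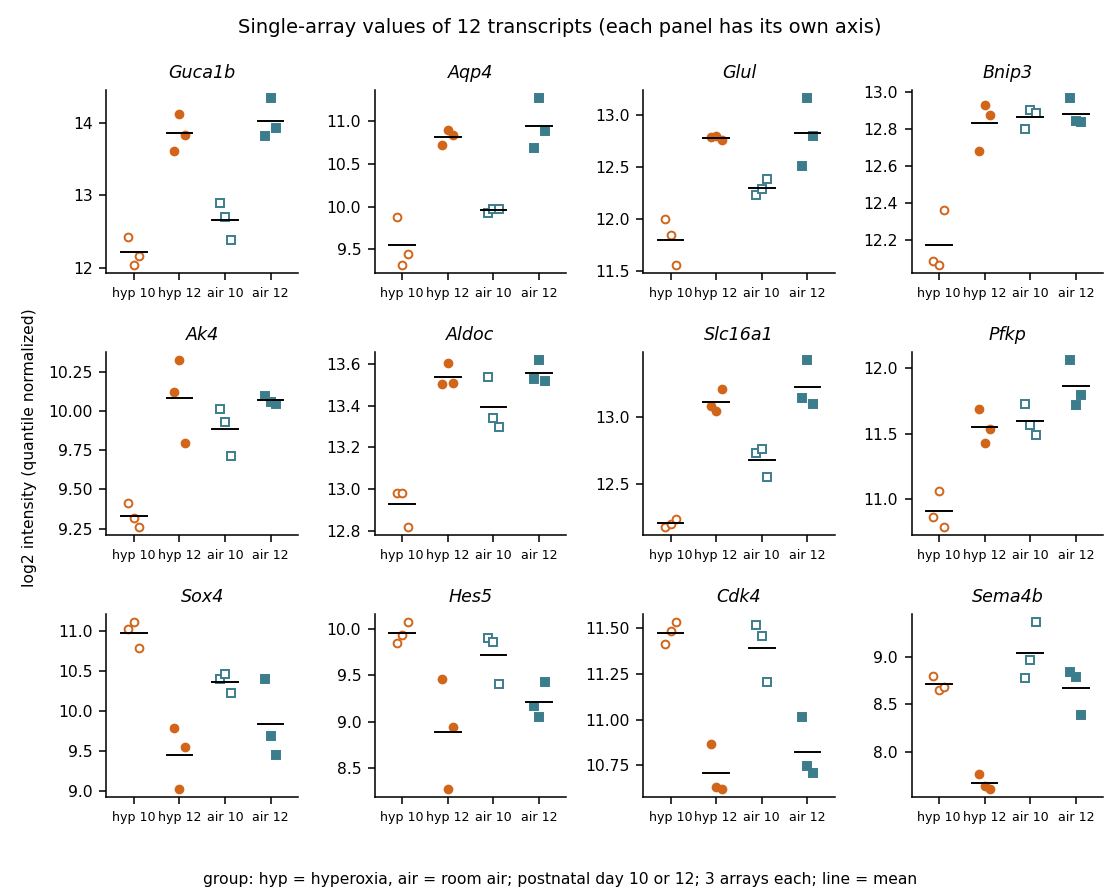
Log2 intensity of 12 transcripts on each array (vertical axis, its own scale in each panel) in hyperoxia (orange circles) and room air (teal squares) at day 10 (open) and day 12 (filled), 3 arrays per group with a line at the mean. In hyperoxia the 2 days do not overlap in any panel; for Bnip3 the day 10 hyperoxia arrays, between 12.07 and 12.36, also lie below both room air groups.

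HIF targets differed upward in hyperoxia over the 2 days and much less so in room air. Of 50 listed genes 42 are on the array and 39 were measured. Of these 4 rose, Bnip3, Aldoc, Ak4 and Pfkp, and 0 fell, against 0.221% and 0.196% of all tested probe sets. Upward differences were seen in 33 of the 39, against 46.9% of all tested, with a median of 0.19. In room air 0 were called, 24 differed upward, against 48.5% of all tested, and the median was 0.04. The difference between both changes had a median of 0.17 and was above 0 in 30 of 39 genes, against 48.6% of all tested probe sets, but it was called for none of them. Averaged over the 39 genes and set against their mean over all 24 arrays, the level was -0.13, -0.11 and -0.14 on the day 10 hyperoxia arrays and 0.09, 0.13 and 0.04 on the day 12 arrays. The room air arrays lay between 0.05 and 0.18 on both days.

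Bnip3, a mitochondrial protein that promotes removal of mitochondria, read 12.08, 12.07 and 12.36 at day 10 in hyperoxia and 12.68, 12.93 and 12.88 at day 12. In room air it read 12.80, 12.90 and 12.88 at day 10 and 12.97, 12.84 and 12.84 at day 12. The day 10 hyperoxia arrays lay below all others, and the day 12 hyperoxia arrays overlapped those of room air. The rise was 0.66 ± 0.12 in hyperoxia (adjusted p = 0.024) and 0.02 ± 0.12 in room air. The difference between both, 0.64 ± 0.17, had an unadjusted p of 0.0016 and was not called.

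Ak4, an adenylate kinase of mitochondria, went from 9.41, 9.32 and 9.26 to 10.12, 10.32 and 9.80, a rise of 0.75 ± 0.15 (adjusted p = 0.034), against 0.18 ± 0.15 in room air. Aldoc, an aldolase of glycolysis, went from 12.98, 12.98 and 12.82 to 13.50, 13.61 and 13.51, a rise of 0.61 ± 0.12 (adjusted p = 0.034), against 0.16 ± 0.12 in room air. For both, the day 12 hyperoxia arrays overlapped the room air arrays of that day. Pfkp, a phosphofructokinase, rose by 0.65 ± 0.14 (adjusted p = 0.048) against 0.27 ± 0.14 in room air. Its hyperoxia mean was 0.69 below room air at day 10 and 0.31 below at day 12. Pfkl, another phosphofructokinase, and Vegfa, the growth factor of vessels, came next in the list with differences of 0.48 ± 0.11 and 0.57 ± 0.13, both just short of a call (adjusted p = 0.053), and -0.06 and 0.02 in room air.

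The glycolysis list overlaps the HIF targets by genes such as Aldoc, Pfkp and Pfkl, so it is no separate evidence. All 20 of its measured genes differed upward, with a median of 0.28 against 0.02 in room air, and 3 rose. The third was Slc16a1, a carrier of lactate, which read 12.19, 12.20 and 12.24 at day 10 and 13.08, 13.04 and 13.20 at day 12. It rose by 0.90 ± 0.18 (adjusted p = 0.034), and by 0.53 ± 0.18 in room air without a call. Of 39 respiratory chain genes 0 were called, with a median of -0.04.

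The promoters of the called HIF targets and of Slc16a1 are shown because these genes moved together and HIF is known to bind ACGTG within its response element. Windows of 300 bases, from 250 before to 50 after each listed start of a gene, were taken from RefSeq (GRCm38.p6) and searched on both strands. A gene was counted if any of its windows held the motif. ACGTG stood in 25 of 33 measured HIF targets with a promoter in the table (75.8%), in 29.2% of 7509 tested genes, and in 19.6% of all 32851 promoters. Among genes that rose it stood in 7 of 26 (26.9%), and among those that fell in 5 of 18 (27.8%), both close to the share among tested genes. The windows read as follows, 5′ to 3′ on the strand of the gene, with the match in capitals; CACGTG holds ACGTG on both strands, and CACGT is ACGTG on the other strand.
Bnip3: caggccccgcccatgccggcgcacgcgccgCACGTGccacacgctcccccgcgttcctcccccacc
Ak4: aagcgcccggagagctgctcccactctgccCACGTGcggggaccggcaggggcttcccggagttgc
Aldoc: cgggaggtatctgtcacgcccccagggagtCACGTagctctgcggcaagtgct
Slc16a1: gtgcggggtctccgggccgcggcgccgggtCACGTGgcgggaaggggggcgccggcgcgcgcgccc
They lie at chr7:138909579-138909644 (minus strand), chr4:101419459-101419524, chr11:78323070-78323122 and chr3:104638434-104638499 (plus strand). The match begins 108, 214 and 200 bases before the start in Bnip3, Ak4 and Slc16a1 and 27 bases after it in Aldoc. Slc16a1 holds a further ACGTG 20 bases after the start, outside the stretch shown. Ak4 has 4 listed promoters and Aldoc 2, and only the promoter shown held the motif. The window of Pfkp holds no ACGTG.

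A match to TAATCC, the core bound by the photoreceptor factor CRX, stood in 12 of 26 rod and outer segment genes (46.2%) and in 6.99% of tested genes, but in 3 of 26 genes that rose (11.5%). These 3 were Guca1a and the HIF targets Aldoc and Pfkp. Guca1a is shown as the member of the calcium feedback list that rose and held it, at chr17:47400628-47400693 on the minus strand, 57 bases before the start, with the reverse complement in capitals.
Guca1a: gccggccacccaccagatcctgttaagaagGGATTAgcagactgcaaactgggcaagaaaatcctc
A match describes the letters of a window and is not a measured binding site.

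**Figure D3:**
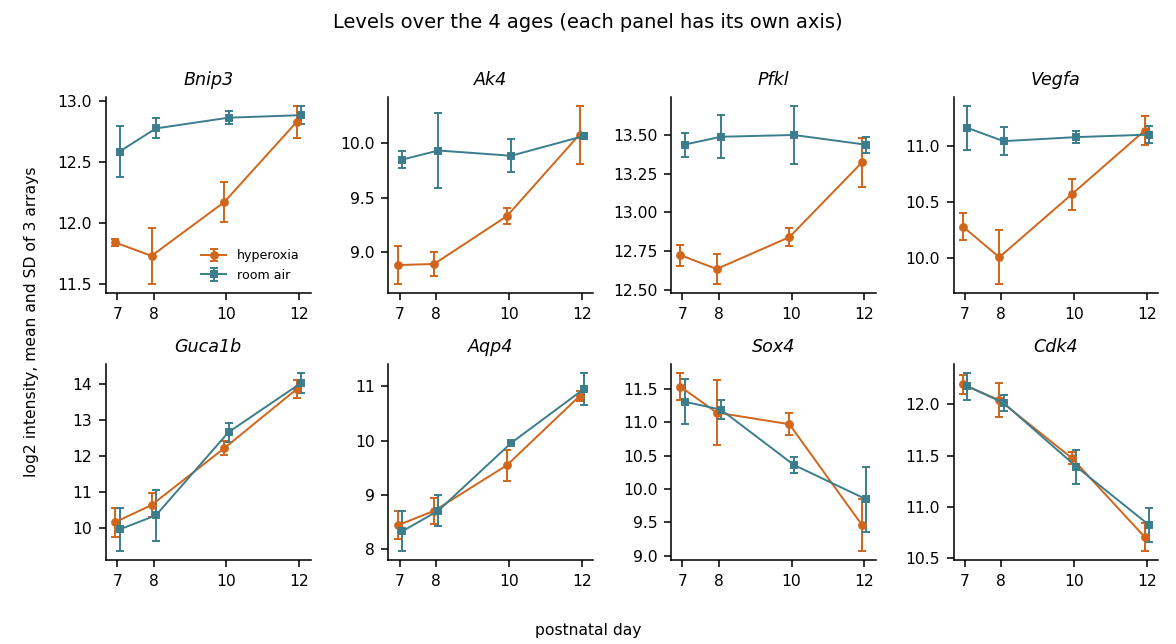
Mean log2 intensity with SD of 3 arrays (vertical axis, its own scale in each panel) at postnatal days 7, 8, 10 and 12 in hyperoxia (orange circles) and room air (teal squares) for 4 HIF targets in the upper row and 4 other genes in the lower row. In the upper row the hyperoxia means approach the room air means at day 12, for Bnip3 from 12.17 to 12.83 against 12.86 and 12.88; in the lower row both conditions run in the same direction.

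Vessel genes gave few calls. Of 24 measured endothelial genes 0 were called by their brightest probe set, 19 differed upward and the median was 0.12, against -0.01 in room air. By another probe set 2 of them rose. Lyve1, a hyaluronan receptor of lymphatic endothelium and of some macrophages, read 8.00, 7.54 and 8.14 at day 10 and 9.21, 8.81 and 9.20 at day 12 and rose by 1.18 ± 0.18 (adjusted p = 0.0072), while its brightest probe set differed by 0.97 ± 0.22. Flt1, a receptor for VEGF, read 7.72, 8.49 and 7.97 and then 8.78, 9.18 and 9.06, a rise of 0.95 ± 0.19 (adjusted p = 0.037), and its 2 other probe sets differed by 0.66 and 0.28. In room air the called probe sets of Lyve1 and Flt1 differed by 0.47 ± 0.18 and 0.41 ± 0.19, and the brightest of Lyve1 by 0.74. Of 21 microglia and macrophage genes 0 were called and the median was -0.10. Which cells supply the Lyve1 transcript was not tested.

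At day 10 the endothelial genes had a median difference of -0.54 between hyperoxia and room air, and at day 12 of -0.40, with 23 and 20 of 24 below 0. Of all tested probe sets 50.6% were below 0 at day 10 and 50.8% at day 12. All these values share the hyperoxia arrays with the comparison of days and are given beside it only. Tm4sf1, a membrane protein of growing endothelium, stood 1.62 below room air at day 10 and 0.96 below at day 12, and differed by 0.97 ± 0.24 between the hyperoxia days (adjusted p = 0.085). Pecam1, the junction protein of endothelium, stood 1.19 and 0.52 below, and differed by 0.74 ± 0.26. Neither of them was called between the days.

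Of 15 genes of the vascular basement membrane 0 were called, and 12 differed upward. Their median was 0.39 against -0.08 in room air. Set against their mean over all 24 arrays, the level was -0.32, -0.19 and -0.17 on the day 10 hyperoxia arrays and -0.03, 0.01 and 0.36 on those of day 12. The highest was replicate 3, the array with most pigment epithelium RNA, and without it the median was 0.29. Col4a2 and Lamb1, chains of its collagen and laminin networks, had the lowest p-values, at 0.63 ± 0.23 and 0.52 ± 0.21, without a call. Of 11 pericyte and smooth muscle genes 0 were called and 10 differed upward, with a median of 0.37 against 0.10, and of 0.23 without replicate 3 of day 12. Col4a3, a type IV collagen of specialised basement membranes, rose from 8.69, 8.71 and 8.87 to 9.13, 9.78 and 9.74, by 0.80 ± 0.17 (adjusted p = 0.0499), and differed by 0.05 in room air. Of 28 angiogenic factors 0 were called by the brightest probe set, with a median of 0.10 against -0.01.

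**Figure D4:**
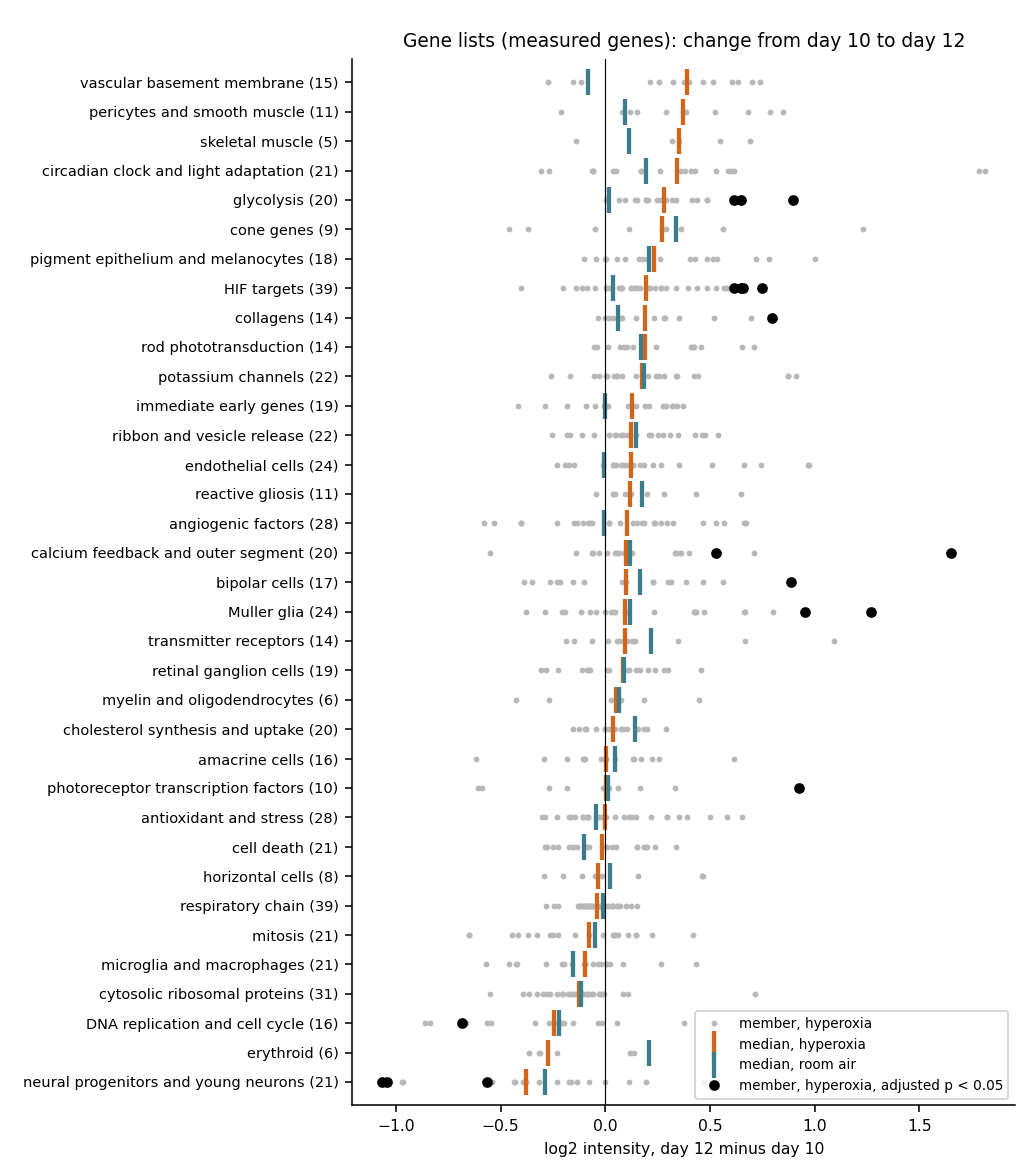
Difference in log2 intensity between day 12 and day 10 (horizontal axis) for the measured genes of 35 lists (number of genes in brackets; the lens list is left out because it varied within groups), with grey points for single genes in hyperoxia, black points for called ones, and bars at the median in hyperoxia (orange) and room air (teal). The 3 lists of HIF targets, glycolysis and vascular basement membrane have orange medians of 0.19, 0.28 and 0.39 and teal medians of 0.04, 0.02 and -0.08; for neural progenitors both medians are below 0.

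Genes of progenitors and young neurons were mostly lower at day 12. Of 21 measured 3 were called by their brightest probe set, all lower: Fabp7, Hes5 and Sfrp2. Among all tested probe sets 0.196% were called lower. By any probe set 5 genes fell. Of the 21 genes 18 differed downward, with a median of -0.38 in hyperoxia and -0.29 in room air. Among all tested probe sets 46.9% were above 0 in hyperoxia. Hes5, a repressor through which Notch keeps progenitors undifferentiated, read 9.85, 9.94 and 10.07 at day 10 and 9.46, 8.27 and 8.94 at day 12. The fall was 1.06 ± 0.20, or 2.09-fold, with an adjusted p of 0.024. Its day 12 arrays were widely spread but all lay below those of day 10.

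Sox4, a transcription factor of young neurons, was measured by 6 probe sets with differences between -0.39 and -1.51, of which 2 were called. The one with the largest fall read 11.02, 11.11 and 10.78 at day 10 and 9.79, 9.03 and 9.56 at day 12, a difference of -1.51 ± 0.25 (adjusted p = 0.012). In room air the same probe set read 10.40, 10.46 and 10.22 and then 10.39, 9.69 and 9.45, a difference of -0.52 ± 0.25 with overlapping days. The unadjusted p of the difference between both changes was 0.011, and it was not called. The other called probe set of Sox4 had no such difference, at -0.93 ± 0.19 in hyperoxia (adjusted p = 0.038) and -1.01 ± 0.19 in room air. Fabp7, a fatty acid binding protein of radial glia, fell by 1.04 ± 0.19 (adjusted p = 0.024), and Sfrp2, a secreted regulator of Wnt signals, by 0.56 ± 0.12 (adjusted p = 0.0499). Notch1, the receptor upstream of Hes5, went from 9.92, 10.02 and 9.85 to 9.07, 8.64 and 9.26, a difference of -0.94 ± 0.19 (adjusted p = 0.038), though another of its probe sets differed by only -0.14.

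Genes of the cell cycle gave a smaller number of calls. Cdk4, the kinase that starts the cycle, was lower by all 3 of its probe sets. The one with the lowest p read 11.41, 11.48 and 11.53 at day 10 and 10.87, 10.63 and 10.62 at day 12, a difference of -0.77 ± 0.12 (adjusted p = 0.0072), against -0.57 ± 0.12 in room air. Of 16 DNA replication genes 14 differed downward, with a median of -0.25 against -0.22 in room air, and 1 fell, Mcm7, a subunit of the replicative helicase, by 0.68 ± 0.14 (adjusted p = 0.041). That is the brightest probe set of Mcm7, and in room air it differed by -0.52. The probe set of Mcm7 counted among the largest falls differed by -0.61 in hyperoxia and -0.13 in room air. Its other probe sets differed by -0.45 and -0.49 in hyperoxia without a call. Rfc3, a clamp loader subunit, differed by -0.67 ± 0.15 without a call. The motif TTTGGCGC, bound by E2F factors, stood in 5 of 15 promoters of that list (33.3%) and in 1.2% of tested genes, but in 0 of the 18 genes that fell.

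Mycl, a member of the MYC family, had the largest fall of a named gene, from 9.58, 10.22 and 10.06 to 8.46, 7.09 and 8.91. The value of 7.09 is the lower limit of measurement, so the difference of -1.80 ± 0.35 (adjusted p = 0.030) is understated there, and its 2 other probe sets differed by -0.61 and -0.54. Sema4b, a membrane-bound semaphorin, went from 8.80, 8.65 and 8.68 to 7.76, 7.64 and 7.61. The 3 arrays of each day lay close together, and the difference of -1.04 ± 0.15 had an adjusted p of 0.0072. In room air Sema4b read 8.78, 8.97 and 9.36 and then 8.84, 8.78 and 8.38, a difference of -0.37 ± 0.15. St8sia4, which adds polysialic acid to adhesion molecules of young neurons, fell by 0.96 ± 0.20 (adjusted p = 0.037), and Panx1, a channel-forming protein, by 0.69 ± 0.13 (adjusted p = 0.024).

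The called probe sets were also followed over all 4 ages. For 66 of 66, day 12 was the extreme of the 4 ages in hyperoxia, which was also so for 66.7% of all tested probe sets. The 66 were chosen by a large step to day 12 on these same arrays, so their count was largely fixed by the choice and is no separate support. In room air, whose arrays entered the choice only through the shared spread, normalization and filter, the day 12 mean was the extreme in the same direction for 64 of 66, against 42.0% of all. From day 7 to day 8, 46 of the 66 moved in the same direction in hyperoxia and 51 in room air, against 49.3% and 57.2% of all tested.

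The same interval of age in room air gave 4 calls (0.0253% of those tested), named here because they are so few: Pdzph1, Gpsm2 and Kcnj14, a potassium channel, rose (0.0189%) and Ppp1r14a, an inhibitor of a phosphatase of smooth muscle, fell (0.00631%). With each array centred on its median in place of quantile normalization the room air calls were 9, 3 higher and 6 lower. Of the 66 probe sets called in hyperoxia 64 differed in the same direction in room air, 33 of 35 upward and 31 of 31 downward, against 63.9% of all tested. Of the 66, 52 did so with an unadjusted p under 0.05 in room air, a threshold that 6.67% of all tested passed in either direction. The 2 exceptions were probe sets of Prss44 and Glrx, genes whose other probe sets differed upward in both conditions. The median difference of the higher probe sets was 0.89 in hyperoxia, on which they were chosen, and 0.46 in room air, and of the lower ones -0.82 and -0.46. Across all tested probe sets the differences in both conditions correlated with r = 0.40 (Spearman's rho 0.37), a description across genes, which are not independent replicates.

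Whether the change differed between hyperoxia and room air was tested directly. By limma 0 probe sets were called (0% of those tested), and 367 had an unadjusted p under 0.05 (2.32%), 217 with the more positive change in hyperoxia (1.37%) and 150 with the more negative one (0.947%). The lowest adjusted p, 0.41, belonged to Prss44, which names a serine protease. Prss44 read 7.65, 7.68 and 7.70 at day 10 in hyperoxia and 8.72, 8.36 and 8.41 at day 12, and 8.50, 8.05 and 8.62 and then 8.12, 7.91 and 7.97 in room air. These are values of 1 probe set, which rose by 0.82 ± 0.16 in hyperoxia (adjusted p = 0.025) and differed by -0.39 ± 0.16 in room air. The difference of changes was thus 1.21 ± 0.22. The day 10 hyperoxia values lay not far above the lower limit of measurement, 7.09. Another, brighter probe set of Prss44 differed by 0.19 in hyperoxia and 0.11 in room air, without opposite signs.

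After Prss44 the lowest p-values toward hyperoxia belonged to Ccnb2, Per3, Bnip3, Mcm5 and Pfkl, at unadjusted p between 1.6e-04 and 0.0019. They did not share a pattern. Ccnb2, a cyclin of mitosis, differed by 0.15 ± 0.16 in hyperoxia and by -0.89 ± 0.16 in room air, and Mcm5, a helicase subunit, by 0.06 ± 0.16 and -0.78 ± 0.16. For these 2 the difference lay in room air, where their levels at day 10 were 0.81 and 1.02 above those of hyperoxia. In hyperoxia their day 10 means, 7.31 and 7.70, lay near the lower limit of measurement, 7.09. Falls as large as those in room air could therefore not have been recorded in hyperoxia. Bnip3 and Pfkl, by contrast, differed in hyperoxia and lay near 0 in room air. Per3, a clock gene, differed by 0.71 ± 0.17 and -0.19 ± 0.17. Another, brighter probe set of Per3 differed by 0.38 in hyperoxia and 0.39 in room air. In the opposite direction the lowest p-values belonged to Rgs7, Lipa, Ms4a7, Uqcc2, Fig4 and Taf12, none called. Of these Rgs7, a regulator of G protein signalling in bipolar cells, differed by -0.39 ± 0.14 in hyperoxia and 0.42 ± 0.14 in room air. Vegfa, Lyve1 and Flt1 had differences of changes of 0.55 ± 0.18, 0.71 ± 0.25 and 0.54 ± 0.27, none called. The value of Lyve1 is not that of its brightest probe set, which differed by 0.97 in hyperoxia and 0.74 in room air.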

How the data were processed

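Per the labels, total RNA of mouse retina was measured on 24 oligonucleotide arrays in 8 groups of 3. For each array the deposited values are linear intensities, 1 per probe set, already scaled by the authors: array means with 2% trimmed at each end were 1500.35 to 1500.4. The software is not given in the sources used here. Intensities were taken to log2 and quantile normalized, because array medians spanned 0.25. A floor was set at the 20th percentile, 136.3 on the linear scale (0.344% of tested values lay on it), which understates differences of dim probe sets. Leaving out 64 control probe sets and those whose mean lay under the 30th percentile kept 15838 of 22690. Of the 22626 others, 20380 had 1 gene symbol in the platform annotation, 691 several and 1555 none, and only the first were named (9266 genes tested).

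Contrasts of group means came from 1 limma fit (version 3.58.1, R 4.3.3; 16 residual and 3.54 prior degrees of freedom), with Benjamini-Hochberg adjusted p-values over all tested probe sets. On simulated data of the comparison in hyperoxia, 26%, 74%, 98% and 94% of 50 probe sets each changed by 1.5, 2, 3 and 4-fold were called. A further 11 calls were false, among the probe sets left unchanged (200 of 15838 were changed). The simulated noise was normal and independent between arrays, without a floor or lens and pigment admixture, so these shares may not hold for the real arrays. The lists, each gene by its brightest probe set, and the compared groups were chosen with earlier results of these data known. Named were the 15 largest rises and falls of called genes with separate arrays, up to 4 lowest p-values per list, and the 6 lowest p-values in each direction for the difference of changes. Precision is limited by 3 arrays per group. Alternatives are in the closing section.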

Additional observations from a re-analysis of the deposited data

How the results depend on the processing

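The 66, 4 and 0 calls (hyperoxia, room air, difference of changes) were recomputed with other scalings, floors, filters and models. Centring arrays on their medians gave 35 and 9 calls for hyperoxia and room air. A floor at the 40th percentile gave 121 and 30. Only the arrays compared gave 0 and 0 by limma, with 1354 and 1102 at an unadjusted p under 0.05. Lens and pigment levels as covariates gave 29 in hyperoxia. For room air a filter at the 50th percentile gave 0 (812 at an unadjusted p under 0.05) and a robust prior 7. Leaving out 1 array at a time gave 7 to 42 calls in hyperoxia and 0 to 5 in room air. With no filter 1 difference of changes was called. All other counts stayed within 1.5 times. The labels do not tie equal replicate numbers to a shared animal or batch. Deviations of same-numbered arrays correlated at 0.02, 0.08 and 0.07 between the hyperoxia days, so the numbers were not taken as pairs. Over all groups 34 of 84 such pairs exceeded 0.1. Between hyperoxia and room air at day 12 same-numbered arrays correlated at 0.23 to 0.44 and the others at -0.34 to -0.03. The main fit leaves out any variation shared by replicate number. With the replicate number as a block, 109 probe sets were called in hyperoxia, the 66 among them, and 7 in room air. For named genes the direction never reversed: 915 values kept their side of the threshold, 282 no longer passed and 46 newly passed. Of the list medians 555 stayed within the spread between replicates and 57 did not, the latter in 25 of 36 lists, and 10 lists changed sign in at least 1 alternative; those of HIF targets (0.15 to 0.21), glycolysis (0.23 to 0.31), vascular basement membrane (0.28 to 0.47) and progenitors (-0.44 to -0.24) did not. Transcripts near the floor are measured least well.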

Other observations

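Genes of the circadian clock and of light adaptation differed upward in 16 of 21 measured members between days 10 and 12 of hyperoxia, with a median of 0.34 against 0.20 in room air and -0.01 over all tested probe sets, and 0 were called by their brightest probe set. Bhlhe40, a repressor within the clock, read 8.98, 7.09 and 7.31 at day 10 and 9.61, 9.35 and 9.86 at day 12. Replicate 1 of day 10 stood well above the other 2 of its group. The value of 7.09 is the lower limit of measurement, so the difference of 1.81 ± 0.41 (adjusted p = 0.053) may be understated. Drd4, a dopamine receptor of photoreceptors, read 12.99, 11.63 and 11.45 and then 14.01, 13.40 and 14.02, with the same array highest at day 10, and differed by 1.78 ± 0.44 (adjusted p = 0.088). Hlf, a clock output factor, rose by 0.83 ± 0.17 by 1 probe set (adjusted p = 0.037), and its brightest probe set differed by 0.53 ± 0.12. In room air the same probe sets differed by 0.39 for Bhlhe40, 0.66 for Drd4, and 0.46 and 0.61 for Hlf. Another probe set of Drd4 differed by 0.75 in hyperoxia, with overlapping arrays, and by 0.69 in room air. The time of day at which retinas were taken is not given in the sources used here, and its part was not tested.

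Of 31 cytosolic ribosomal protein genes 0 were called and 28 differed downward, with a median of -0.12 in hyperoxia and -0.12 in room air. Gabrr2, a GABA receptor subunit of bipolar cells, had nearly the same difference in both conditions, 1.09 ± 0.24 in hyperoxia (adjusted p = 0.051) and 1.07 ± 0.24 in room air. Kcnj14, a potassium channel subunit, differed by 0.91 ± 0.30 in hyperoxia and rose by 1.89 ± 0.30 in room air (adjusted p = 0.027), and the difference between both, -0.98 ± 0.43, was not called.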
